A study of Mus musculus with 16 samples.

Results

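The 3 rows described here are those of Col11a1 and Col11a2, which encode chains of collagen XI, and of H2-Pb, a pseudogene that lies past the end of Col11a2 on the other strand. They were taken by name from the 47517 rows of the gene count files and were selected on their fragment counts, which were much higher in loaded than in non-loaded tibiae. They were thus chosen by that contrast, and their loading response is described below with no test. The questions left to the data were how the rows differ between genotypes, how they differ from each other, and whether H2-Pb follows Col11a2 from library to library.

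Collagen XI is a fibril-forming collagen whose triple helix combines the chains made from Col11a1 and Col11a2 with the third chain, made from Col2a1. It is best known from cartilage, where it lies inside thin collagen II fibrils and limits their diameter. Outside cartilage, the Col11a1 chain can combine with collagen V chains in molecules that take part in building collagen I fibrils, and in humans mutations of the collagen XI genes cause skeletal and hearing disorders. H2-Pb belongs to the class II region of the mouse major histocompatibility complex, whose intact genes encode the proteins that present peptides to T cells, and it is annotated as an unprocessed pseudogene, a gene copy that keeps its intron structure.

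The samples were tibial cortical bone of 8 male mice, 16 weeks old. Loaded and non-loaded limbs came from 4 NT3-Cre+ mice (NT3 here) and from 4 Ctrl mice, which gives the groups loaded NT3, non-loaded NT3, loaded Ctrl and non-loaded Ctrl, with 4 libraries each. In each mouse the right tibia was compressed along its axis on 9 days, with 1200 cycles a day, and the left tibia of that mouse was its non-loaded partner. The peak force was 10.0 N in NT3 and 8.7 N in Ctrl, set so that both reached -2000 microstrain. All mice had isoflurane anaesthesia and buprenorphine, and tibiae were collected 4 hours after loading ended, with muscle stripped and marrow spun out. The series title places the study in activation of the kinase NIK, the product of Map3k14, in cells of the bone lineage. What allele NT3 stands for, which promoter drives Cre and which alleles Ctrl mice carry is not given in the sources used here. Nothing separates a response to loading from a difference between right and left limbs, since loading was always on the right.

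Libraries held 758394 to 1064391 counted fragments, so 1 fragment is close to 1 CPM (count per 1000000 fragments). Map3k14 had 2 to 9 fragments in loaded NT3, 1 to 7 in non-loaded NT3, 1 to 7 in loaded Ctrl and 1 to 4 in non-loaded Ctrl, too few to check the genotype labels. The tissue label was checked against fixed marker lists. The summed osteoblast list held 516 to 754 CPM in loaded NT3, 414 to 533 in non-loaded NT3, 613 to 945 in loaded Ctrl and 198 to 518 in non-loaded Ctrl, and the osteocyte list held 143 to 303 over all groups. The osteoblast sum was carried by Col1a1 (34 to 430 fragments a library), Ibsp (57 to 235), Col1a2 (20 to 208) and Runx2 (54 to 107, with exons opposite Runx2os1). The other members were low, with 0 to 4 fragments for Bglap, 0 to 1 for Bglap2, 0 to 9 for Sp7, 0 to 15 for Alpl and 2 to 23 for Spp1, so the list supports the label only in part. In bulk bone, fewer cells of a type and less RNA per cell cannot be told apart. The RNA integrity number averaged 5.4, per the labels. The strand setting of the counting is not given in the sources used here, and 1074 of the 1222 matched rows averaging at least 100 fragments (87.9%) had exons opposite exons of another gene, against 15.2% of the other matched rows. Reads of either strand at a locus therefore cannot be told apart with certainty. None of the 3 rows has exons that overlap opposite-strand exons by 20 bases or more, but this does not settle which strand their reads came from. Values of the H2-Pb row are therefore fragments counted at those exons, and whether they are reads of the strand of the pseudogene or of Col11a2 was not tested.

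Col11a1 (ENSMUSG00000027966.20) lies on the plus strand at chr3:114030540-114220718 in GRCm38, with 68 exon blocks. Col11a2 (ENSMUSG00000024330.17) lies on the plus strand at chr17:34039437-34066685, with 67 exon blocks. H2-Pb (ENSMUSG00000092383.2) lies on the minus strand at chr17:34073762-34076167, with 3 exons. The gap from the end of Col11a2 to H2-Pb is 7076 bases and holds 0 annotated genes. The files give exon lengths of 12728 bases for Col11a1, 6831 for Col11a2 and 531 for H2-Pb. None of the 440 stretches of 75 bases, the read length, in the H2-Pb exons occurred in a transcript of another annotated gene, and the same held for the 7221 of Col11a2 and the 12986 of Col11a1. The closest annotated relative of H2-Pb was H2-Ab1, a class II beta chain gene, with 74.8% identity over 317 aligned bases, followed by H2-Eb1 with 72.9% over 325 bases.

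The H2-Pb exons are shown because the row had the highest loading response of the 3. The exons shown hold 514 bases, against the length of 531 given with the counts, so some fragments of the row may lie outside them. They were read from the GENCODE transcript and run 5′ to 3′ on the minus strand of GRCm38, exon 1 at chr17:34076046-34076167, exon 2 at chr17:34074380-34074653 and exon 3 at chr17:34073762-34073879.
H2-Pb exon 1: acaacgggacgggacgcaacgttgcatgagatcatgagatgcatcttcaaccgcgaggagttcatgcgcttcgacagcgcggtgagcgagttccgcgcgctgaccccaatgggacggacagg
H2-Pb exon 2: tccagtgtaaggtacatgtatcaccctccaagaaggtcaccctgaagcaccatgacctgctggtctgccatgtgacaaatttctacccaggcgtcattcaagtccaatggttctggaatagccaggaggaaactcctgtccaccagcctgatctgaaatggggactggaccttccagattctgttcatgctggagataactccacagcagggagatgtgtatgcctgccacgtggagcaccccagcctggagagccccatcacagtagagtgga
H2-Pb exon 3: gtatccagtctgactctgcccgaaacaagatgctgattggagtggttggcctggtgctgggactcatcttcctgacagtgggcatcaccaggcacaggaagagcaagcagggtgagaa

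The promoters of the collagen XI genes, from RefSeq on GRCm38.p6, are shown for comparison, because the values of both rows were higher in loaded limbs. Each runs from 250 bases before to 50 bases after the RefSeq start on the plus strand, at chr3:114030290-114030589 for Col11a1 and chr17:34038888-34039187 for Col11a2. The RefSeq start of Col11a2 differs from the GENCODE start given above, 34039437, and the whole Col11a2 window lies before the latter. Capitals mark the single match to TATAAA. The RefSeq table held 2 of the 3 members, with no entry for H2-Pb.
Col11a1 promoter: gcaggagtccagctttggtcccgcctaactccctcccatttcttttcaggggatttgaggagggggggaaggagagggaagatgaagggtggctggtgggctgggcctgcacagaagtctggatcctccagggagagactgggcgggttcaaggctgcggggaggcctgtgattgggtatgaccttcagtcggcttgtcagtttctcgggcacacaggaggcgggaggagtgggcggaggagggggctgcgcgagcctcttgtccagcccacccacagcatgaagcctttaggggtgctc
Col11a2 promoter: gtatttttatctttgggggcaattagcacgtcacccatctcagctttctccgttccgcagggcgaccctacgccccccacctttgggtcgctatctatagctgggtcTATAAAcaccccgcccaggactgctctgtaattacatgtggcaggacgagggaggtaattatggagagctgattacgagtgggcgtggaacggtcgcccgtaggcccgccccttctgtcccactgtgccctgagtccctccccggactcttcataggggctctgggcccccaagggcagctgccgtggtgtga

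These promoters were searched on both strands for 4 motifs. The TATA box was spelled TATAAA in this search. The binding motif of RUNX factors was spelled TGTGGT, and that of SOX factors was given in this search as AACAAT. The NF-kB motif was a run of 3 G, then any 3 bases, then 2 T and 2 C. The Col11a2 window held 1 TATAAA, 143 bases before the RefSeq start, a word found in 14.2% of 27025 promoter windows of the same length. It had 0 matches to the other words, and the Col11a1 window had 0 matches to any of them. These words occurred in 16.9% (RUNX), 10.9% (SOX) and 5.52% (NF-kB) of the windows. The Col11a1 window had 62.3% G and C and the Col11a2 window 59%.

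Col11a1 was higher in the loaded limb of all 4 Ctrl mice and of 3 of 4 NT3 mice. In mice 1 to 4, the row had 32, 13, 17 and 18 fragments in loaded NT3 limbs and 10, 24, 6 and 11 in their non-loaded partners. In Ctrl mice it had 66, 44, 36 and 79 fragments in loaded limbs and 20, 8, 13 and 18 in non-loaded limbs. The Ctrl limbs did not overlap, while the NT3 limbs did, since NT3 mouse 2 had more fragments in its non-loaded limb. After TMM scaling (a library scaling that sets most rows equal), the mean CPM were 25.1 ± 6.91 in loaded NT3, 14.4 ± 8.66 in non-loaded NT3, 64.6 ± 22.8 in loaded Ctrl and 16.3 ± 6.05 in non-loaded Ctrl (SD, n = 4 each). The fitted loading change was a log2 fold of 0.85 (SE 0.34) in NT3 and 1.98 (SE 0.30) in Ctrl. Without NT3 mouse 2 the NT3 value was 1.41, and without NT3 mouse 1 it was 0.56.

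Col11a2, which encodes the partner chain, was higher in the loaded limb of all 8 mice. Its fragments in mice 1 to 4 numbered 62, 70, 47 and 40 in loaded NT3 limbs, against 29, 24, 7 and 19 in non-loaded NT3 limbs. Ctrl mice had 68, 71, 87 and 106 fragments in loaded limbs, against 40, 14, 26 and 43 in non-loaded limbs. Loaded and non-loaded limbs did not overlap within either genotype, and every loaded NT3 count but that of mouse 2 was below every loaded Ctrl count. The CPM averaged 70.6 ± 18.6 in loaded NT3, 22 ± 9.82 in non-loaded NT3, 96.2 ± 24.3 in loaded Ctrl and 33.8 ± 14.3 in non-loaded Ctrl (SD, n = 4 each). The loading change was nearly equal in the genotypes, at a log2 fold of 1.68 (SE 0.26) in NT3 and 1.54 (SE 0.24) in Ctrl.

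H2-Pb was also higher in the loaded limb of all 8 mice, and had the fewest fragments of the 3 rows in non-loaded Ctrl limbs. In mice 1 to 4, loaded NT3 limbs had 59, 51, 20 and 28 fragments and non-loaded NT3 limbs 15, 18, 3 and 7. Loaded Ctrl limbs had 89, 60, 50 and 63 fragments and non-loaded Ctrl limbs 1, 3, 2 and 10. The row was thus near its floor in non-loaded Ctrl bone and well above it in loaded bone of either genotype. Mean CPM were 50.1 ± 20.9 in loaded NT3, 12 ± 7.63 in non-loaded NT3, 75.5 ± 21 in loaded Ctrl and 4.25 ± 4.06 in non-loaded Ctrl (SD, n = 4 each).

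**Figure D1:**
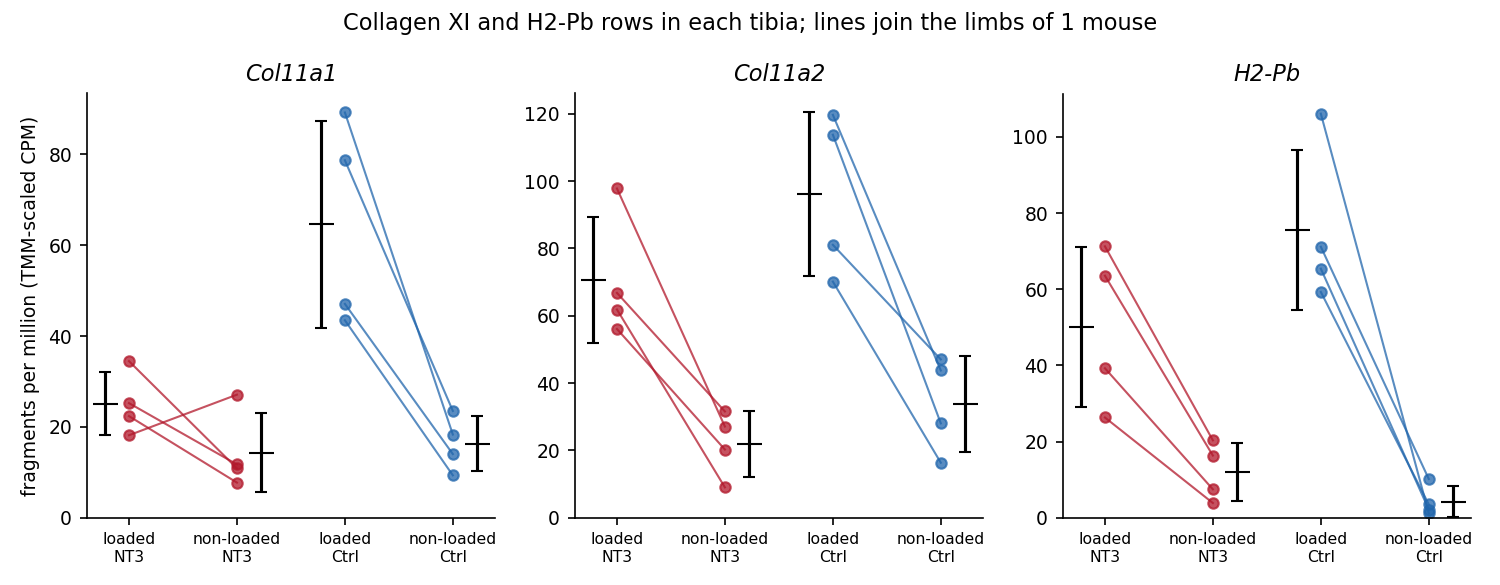
TMM-scaled CPM (linear axis) of the Col11a1, Col11a2 and H2-Pb rows in loaded NT3, non-loaded NT3, loaded Ctrl and non-loaded Ctrl tibiae. Points are libraries, coloured lines join the limbs of 1 mouse, and black bars are mean ± SD of 4. Lines slope down from loaded to non-loaded in all mice except NT3 mouse 2 for Col11a1, and H2-Pb averages 4.25 CPM in non-loaded Ctrl limbs.

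The fitted loading change of H2-Pb was a log2 fold of 2.09 (SE 0.33) in NT3, a 4.26-fold change, and 4.07 (SE 0.36) in Ctrl, a 16.8-fold change. The Ctrl value rests on few fragments in the non-loaded limbs. In Ctrl mouse 4, with 10 non-loaded fragments, the ratio of loaded to non-loaded CPM was 6.99 (exact 95% interval for counting error 3.56 to 15.3). In Ctrl mouse 2 it was 16.9 (5.52 to 84.4) and in Ctrl mouse 3 it was 30.3 (7.97 to 257). Ctrl mouse 1 had 1 non-loaded fragment, which gave a ratio of 90.2 with a lower bound of 15.8. The ratios of the NT3 mice lay between 3.51 and 6.80, all below those of the Ctrl mice, though the highest was close to the 6.99 of Ctrl mouse 4. That highest ratio, in NT3 mouse 3 with 3 non-loaded fragments, had an interval of 2.02 to 35.7, which overlaps the intervals of the Ctrl mice. The row was chosen by this contrast, so the order of the genotypes was not tested. Leaving out Ctrl mouse 4 gave a log2 fold of 4.97 in Ctrl, and leaving out Ctrl mouse 1 gave 3.62.

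The loading change in NT3 minus that in Ctrl was -1.13 (SE 0.47) for Col11a1, 0.14 (SE 0.35) for Col11a2 and -1.98 (SE 0.53) for H2-Pb, in log2 units. The difference is built from the contrasts that chose the rows, so it has no test here. Leaving out 1 mouse at a time moved it over -1.42 to -0.56 for Col11a1, with the smallest size without NT3 mouse 2, and over -2.88 (without Ctrl mouse 4) to -1.53 (without Ctrl mouse 1) for H2-Pb. For Col11a2 it ran from -0.13 to 0.39, with a negative sign without Ctrl mouse 1 (-0.13) or NT3 mouse 3 (-0.084). For Col11a1 the genotypes did not overlap in loaded limbs and overlapped in non-loaded limbs. For H2-Pb they overlapped in loaded limbs, and the lower end of the non-loaded limbs was held by Ctrl mice 1, 2 and 3 and NT3 mouse 3.

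The genotypes were also compared with both limbs of each mouse summed. The sums hold the loaded and non-loaded libraries whose difference chose the rows, so this comparison and those of single limbs are not independent of that choice. Of the summed Col11a1 fragments, loaded limbs gave 80 of 131 in NT3 and 225 of 284 in Ctrl. Among 8626 rows tested with edgeR, 1.98% were called at an adjusted p below 0.05, and 0.846% were called lower in NT3. Col11a1 was 1 of these: it was lower in NT3, at 0.494 of the Ctrl level (log2 -1.02, SE 0.24, edgeR adjusted p = 0.018). Col11a2 had a log2 fold change of -0.51 (SE 0.19, edgeR adjusted p = 0.230) and H2-Pb of -0.38 (SE 0.28, edgeR adjusted p = 0.682), and neither passed. The Col11a1 call rests on several mice. Its adjusted p was 0.073 (log2 -0.87) without Ctrl mouse 1, 0.109 (-0.86) without Ctrl mouse 4, 0.100 (-0.91) without NT3 mouse 3 and 0.073 (-0.95) without NT3 mouse 4.

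In loaded limbs alone, 2.65% of 6080 rows were called, and 1.33% lower in NT3. Col11a1 was again the called member, at 0.394 of the Ctrl level (log2 -1.34, SE 0.28, edgeR adjusted p = 0.0034). Its loaded values ran from 18.2 to 34.5 CPM in NT3 and from 43.5 to 89.2 CPM in Ctrl, with no overlap, and it stayed called without any 1 mouse (log2 -1.55 to -1.15). Col11a2 had a log2 fold change of -0.44 (SE 0.22, edgeR adjusted p = 0.374) and H2-Pb of -0.58 (SE 0.26, edgeR adjusted p = 0.299).

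In non-loaded limbs, 0.579% of 6220 rows were called, and neither of the 2 tested members was, by edgeR or by DESeq2. Neither had an unadjusted edgeR p below 0.05, which 486 of the 6220 rows had. Col11a1 had a log2 fold change of -0.18 (SE 0.41, edgeR adjusted p = 0.954), with values of 7.74 to 27.1 CPM in NT3 and 9.34 to 23.5 CPM in Ctrl, which overlap. Col11a2 had -0.61 (SE 0.36, edgeR adjusted p = 0.748). H2-Pb had too few fragments to pass the filter. Without the filter, H2-Pb was higher in NT3 by a log2 fold of 1.45, short of the threshold (edgeR adjusted p = 0.638).

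Levels can be compared between rows only per length. The strand of the reads was not settled, so these are levels of counted fragments. How they relate to transcript levels was not tested. Per kilobase of exon, the H2-Pb row averaged 94.4 CPM in loaded NT3, 22.6 in non-loaded NT3, 142 in loaded Ctrl and 8.01 in non-loaded Ctrl. The Col11a2 row averaged 10.3 in loaded NT3, 3.22 in non-loaded NT3, 14.1 in loaded Ctrl and 4.95 in non-loaded Ctrl. The mean level per length of the H2-Pb row was 9.12 times that of Col11a2 in loaded NT3, 7.02 times in non-loaded NT3 and 10.1 times in loaded Ctrl, and it was the higher in every library of these groups. In non-loaded Ctrl the ratio of the means was 1.62, but it was 0.962 without mouse 4, and the H2-Pb row was the lower in mice 1 (2.21 against 6.89) and 3 (4.06 against 4.11). The Col11a1 row was the lowest per kilobase in each group, from 1.13 in non-loaded NT3 to 5.08 in loaded Ctrl.

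Whether H2-Pb keeps a fixed proportion to Col11a2 was read from raw fragments within each library, which needs no scaling. H2-Pb made up 48.8%, 42.1%, 29.9% and 41.2% of the fragments of both rows in loaded NT3 mice 1 to 4, and 34.1%, 42.9%, 30% and 26.9% in their non-loaded limbs. In Ctrl mice the shares were 56.7%, 45.8%, 36.5% and 37.3% in loaded limbs and 2.44%, 17.6%, 7.14% and 18.9% in non-loaded limbs. Thus the shares of 3 groups overlapped, and all 4 non-loaded Ctrl limbs lay below every other library.

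Counting error alone is wide where fragments are few. The exact (Clopper-Pearson) 95% interval was 6.67% to 65.2% for non-loaded NT3 mouse 3, which had 10 fragments in both rows together, and 48.6% to 64.6% for loaded Ctrl mouse 1, which had 157. For non-loaded Ctrl mouse 1, with 1 H2-Pb fragment among 41, it was 0.0617% to 12.9%. Such intervals cover counting error only, since reads without molecular identifiers are not independent molecules.

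**Figure D2:**
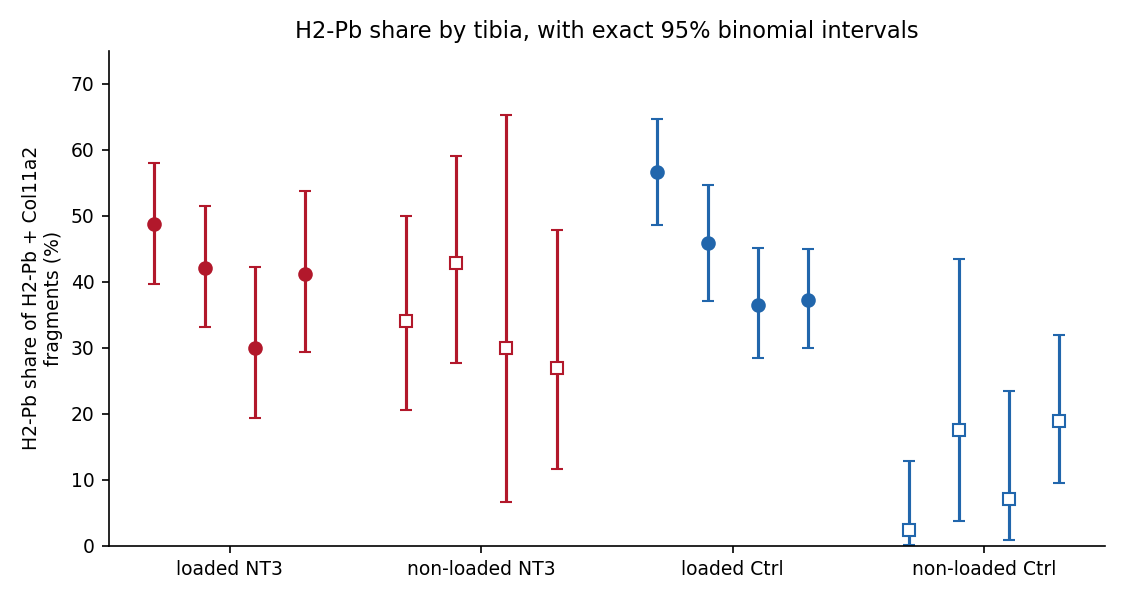
H2-Pb fragments as a percentage of H2-Pb plus Col11a2 fragments in each tibia, replicates 1 to 4 from left to right in each group, with exact 95% binomial intervals. Shares lie between 26.9% and 56.7% in loaded NT3, non-loaded NT3 and loaded Ctrl tibiae, and between 2.44% and 18.9% in non-loaded Ctrl tibiae.

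As a log2 ratio of H2-Pb to Col11a2, with 0.5 added to each count, the mean was -0.56 ± 0.48 in loaded NT3 and -0.35 ± 0.55 in loaded Ctrl (SD, n = 4 each). The difference of -0.21 was smaller than the spread between mice (two-sided exact permutation p = 0.6). In non-loaded limbs the mean was -0.95 ± 0.41 in NT3 and -3.07 ± 1.29 in Ctrl (SD, n = 4 each), a difference of 2.11 in log2 units. The two-sided exact permutation p was 0.0286, the smallest that 4 mice against 4 allow, and 0.0571 after Benjamini-Hochberg adjustment over both limbs, so it missed the threshold once adjusted. The non-loaded Ctrl counts also entered the contrast that chose H2-Pb, so this p is not independent of that choice. Within mice, the ratio was higher in the loaded limb of 2 of 4 NT3 mice (mean difference 0.39, SD 0.55) and of 4 of 4 Ctrl mice (mean difference 2.72, SD 1.70).

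Across mice, the rows were compared with limbs of 1 kind at a time, as log2(CPM + 1). Over the 8 loaded limbs, Pearson's r of H2-Pb with Col11a2 was 0.588 (exact permutation p = 0.126, adjusted p = 0.377 over 9 relations) and Spearman's rho was 0.738 (exact permutation p = 0.0458, adjusted p = 0.249). Without the pair of mice farthest from the Col11a2 median, r was 0.705. After the mean of each genotype was taken off, r was 0.381 (exact permutation within genotypes, p = 0.401). Over the 8 non-loaded limbs, r was 0.0769 (exact permutation p = 0.858, adjusted p = 0.858) and rho was -0.0714 (exact permutation p = 0.882, adjusted p = 1), with r = 0.414 without the pair of mice farthest from the median. There, r after the genotype means were taken off was 0.504 (exact permutation p = 0.253). With 8 mice, no relation between H2-Pb and Col11a2 passed the threshold after adjustment. For the loading changes no r over all mice is given, since the H2-Pb changes of NT3 mice (log2 1.76 to 2.49) and Ctrl mice (2.69 to 5.62) did not overlap. After the genotype means were taken off, the r of the changes of H2-Pb and Col11a2 was -0.187 (exact permutation within genotypes, p = 0.707).

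**Figure D3:**
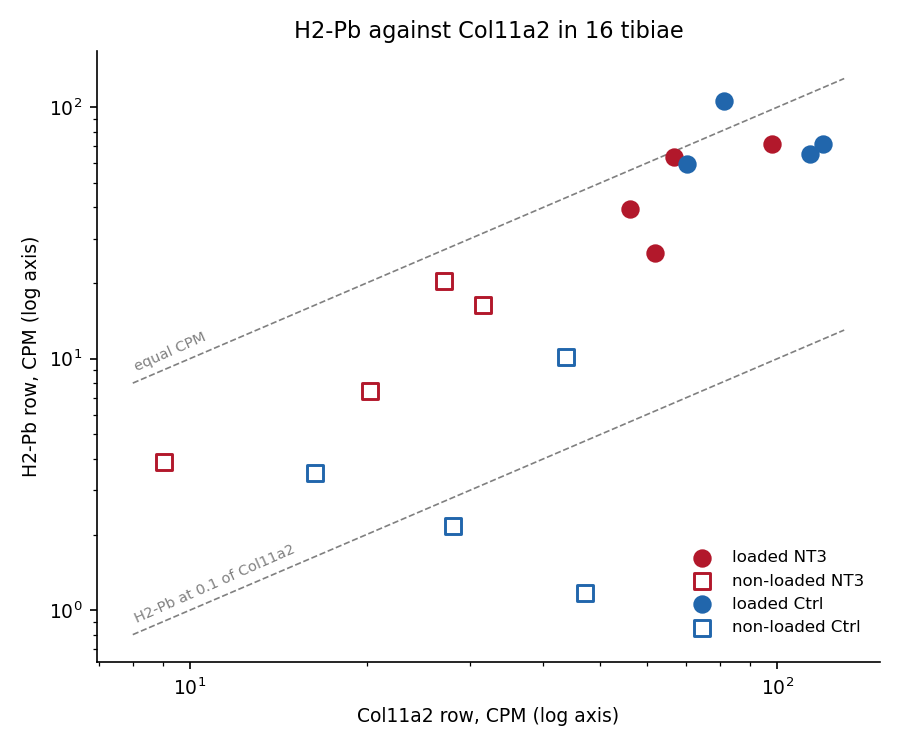
H2-Pb against Col11a2 in 16 tibiae, both as TMM-scaled CPM on log axes, with filled circles for loaded and open squares for non-loaded limbs, NT3 in red and Ctrl in blue. Dashed lines mark equal CPM and H2-Pb at 0.1 of Col11a2. Loaded limbs form the upper right group. In non-loaded limbs, H2-Pb runs from 1.18 to 10.2 CPM in Ctrl and from 3.87 to 20.3 in NT3. Col11a2 runs there from 16.35 to 47.0 CPM in Ctrl and from 9.03 to 31.6 in NT3, so the ranges of both rows overlap.

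For the collagen XI rows themselves, Pearson's r of Col11a1 with Col11a2 over the 8 non-loaded limbs was 0.757 (exact permutation p = 0.0282, adjusted p = 0.254) and Spearman's rho was 0.667 (exact permutation p = 0.0831, adjusted p = 0.249). It was 0.511 without the pair of mice farthest from the Col11a2 median. H2-Pb and Col11a1 had r = 0.152 (exact permutation p = 0.709, adjusted p = 0.858) and rho = 0.143 (exact permutation p = 0.752, adjusted p = 1) there, and 0.257 without the farthest pair of mice. In loaded limbs and for the loading changes no r over all mice is given for Col11a1 with either other member, since its genotypes did not overlap. After the genotype means were taken off, r of Col11a1 with Col11a2 was 0.755 in non-loaded limbs (exact permutation within genotypes, p = 0.0677). In loaded limbs, r of this pair was -0.00947 (exact permutation within genotypes, p = 0.981). For the loading changes, r of this pair was -0.00884 (exact permutation within genotypes, p = 0.979).

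Likeness over all 16 libraries is a description only, because limbs of the same kind cluster and the rows were chosen for that difference. Among 7191 other rows, Col11a2 was in place 78 by its Pearson r with H2-Pb (0.773), and H2-Pb was in place 59 for Col11a2. The rows most like H2-Pb over the 16 libraries were Prmt7 (r = 0.942), opposite Smpd3 and Gm26786, Gm13372 (0.939), opposite Col5a1, Cdkn2b (0.938), Abi3 (0.932), opposite Phospho1, Gngt2 and Zfp652, and Col1a1 (0.911). Those most like Col11a2 were 1700051A21Rik (0.909), opposite Slc13a5, Abi3 (0.905), Gm38266 (0.903), Prmt7 (0.903) and Col5a2 (0.894). Those most like Col11a1 were Gm16536 (0.942), opposite Bace1, Col3a1 (0.906), Psmc3 (0.901), opposite Slc39a13, 1700051A21Rik (0.887) and Zfp7 (0.880). Prmt7 and Abi3 were thus among the first 5 for both H2-Pb and Col11a2.

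Over the 8 loaded libraries alone the order changed, and Col11a2 was in place 651 for H2-Pb. There the rows most like H2-Pb were Lrrc47 (r = 0.977), opposite Smim1, Gm7890 (0.943), Prmt7 (0.942), Poli (0.942), opposite Mir6357, and Rad54l (0.939), opposite Lrrc41. For Col11a2 they included Sco2 (0.963) and Tymp (0.949), both opposite Ncaph2, 4833439L19Rik (0.930), opposite Simc1, and Tmem259 (0.925), opposite Grin3b. For Col11a1 they were Prss57 (0.975), opposite Fstl3, Pdzd7 (0.963), opposite Lzts2, Gm15612 (0.957), opposite Podxl2, 9530034A14Rik (0.936) and Exoc3l (0.934), opposite Gm20163. Loaded Col11a1 values did not overlap between genotypes, so any row that differs by genotype can have a high r with it. All of these are the highest among 7191 rows over only 8 libraries, so they too are a description only.

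Col11a1 had 0 annotated genes within 50 kb. Around Col11a2 and H2-Pb, 14 other genes with rows lay within 50 kb of either gene, and 6 of these had enough fragments for the loading fit. None of the 6 was called for loading in NT3, where 0.417% of 7192 rows were called, or in Ctrl, where 4.07% were. By edgeR, 0 of the 6 had an unadjusted p below 0.05 in either genotype. Over all 7192 rows, 546 had such a p in NT3 and 1061 in Ctrl. DESeq2 called 0 of the 6 in Ctrl and gave them no adjusted p in NT3. Their log2 fold changes ran from 0.18 to 0.75 in NT3 and from -1.11 to 0.58 in Ctrl. Rxrb, a retinoid receptor gene that ends 1.04 kb before Col11a2 on the same strand, was too low for the fit, with a mean change of 0.84 ± 0.38 in NT3 and 0.51 ± 0.68 in Ctrl (log2(CPM + 1), SD, n = 4 mice each). On the far side is BC051537, an antisense transcript gene on the strand of H2-Pb, whose nearer end lies 7.68 kb farther along the chromosome. The BC051537 row changed by 0.18 with loading in NT3 and by -0.07 in Ctrl.

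**Figure D4:**
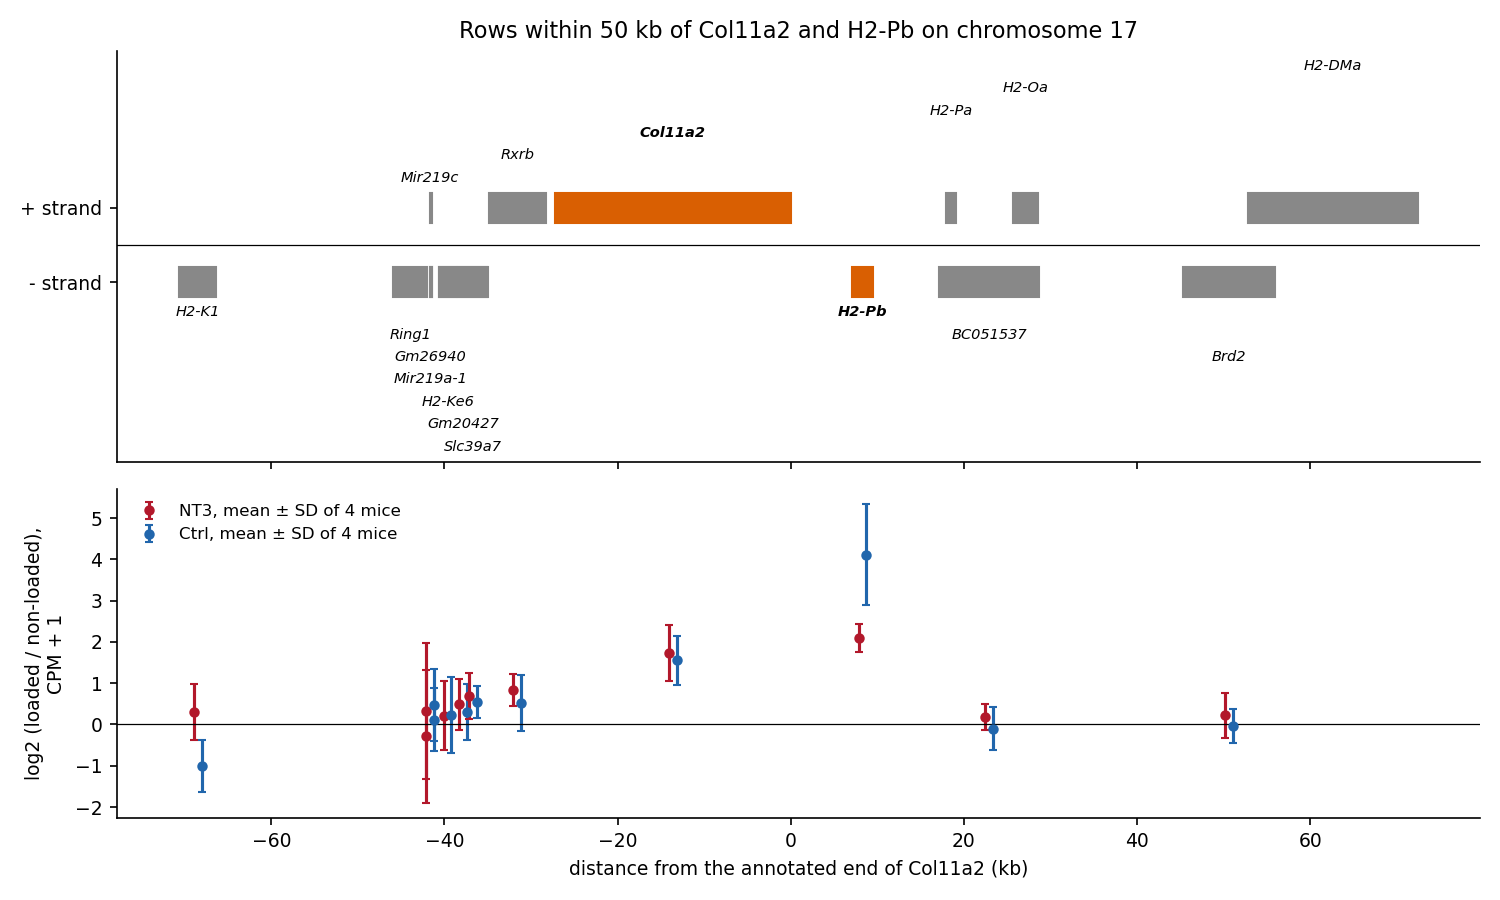
Genes with rows within 50 kb of Col11a2 and H2-Pb, by distance in kb from the end of Col11a2, above, and the mean log2 ratio of loaded to non-loaded CPM + 1, with SD over 4 mice, for rows with at least 40 fragments over all libraries, below. The Col11a2 and H2-Pb rows average 1.74 and 2.10 in NT3 and 1.56 and 4.11 in Ctrl, and the rows next to them, Rxrb and BC051537, average at most 0.84.

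BC051537, whose exons lie opposite H2-Oa and H2-Pa, differed between genotypes where H2-Pb did not pass. With limbs summed it was higher in NT3 by a log2 fold of 1.10 (SE 0.22, edgeR adjusted p = 0.0042; 1.14% of rows tested were called higher). It was also higher in loaded limbs (1.22, SE 0.28, edgeR adjusted p = 0.010; 1.32% of rows tested were called higher), though not without Ctrl mouse 2 (0.97, edgeR adjusted p = 0.059), while in non-loaded limbs it had 0.96 (SE 0.27, edgeR adjusted p = 0.125). Of the class II region list of 20 genes, 7 were tested with limbs summed, and 0 were called by edgeR or DESeq2. An unadjusted edgeR p below 0.05 was found for 1 of the 7, H2-Ab1, and for 996 of all 8626 rows tested. The list median was 0.15 in log2 units, against -0.01 over all rows tested. The first 4 tested members in list order had log2 values of 1.24 (H2-Ab1, edgeR adjusted p = 0.273), 0.15 (Psmb9, a proteasome subunit gene), 0.48 (Tap2, a peptide transporter gene) and 0.10 (Brd2, a chromatin reader gene). For loading, 4 were tested, and 0 were called in either genotype, with medians of 0.16 in NT3 and 0.04 in Ctrl. An unadjusted edgeR p below 0.05 was found for 0 of the 4, against 546 of all 7192 rows in NT3 and 1061 in Ctrl.

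The other fibrillar collagen rows were used to place the collagen XI rows. With loading in Ctrl, 5 of the 7 tested members of the list of 9 were called higher, as were 3.07% of all rows tested. The list median was 1.45 against -0.03 over all rows tested. Col1a1 and Col1a2, the chains of collagen I of bone, rose by 2.06 (SE 0.17, edgeR adjusted p = 6.3e-12) and 1.79 (SE 0.18, edgeR adjusted p = 4.6e-10). Col3a1, of collagen III, rose by 1.45 (SE 0.29, edgeR adjusted p = 0.0023), and Col5a1, whose exons lie opposite Gm13372, by 1.37 (SE 0.26, edgeR adjusted p = 0.00037). The remaining called row was Col5a2, with 1.90. In NT3, where 0.334% of all rows tested were called higher, 1 of the 7 was called higher, Col1a1 (1.19, SE 0.16, edgeR adjusted p = 1.5e-05), with a list median of 0.65. Without the replicate block for mouse, that call was lost (1.17, edgeR adjusted p = 0.659). An unadjusted edgeR p below 0.05 was found in NT3 for 4 of the 7 and for 546 of all 7192 rows tested. These 4 were Col1a1, Col1a2 (0.65), Col3a1 (0.72) and Col5a2 (1.18), all higher in loaded limbs. DESeq2 called 1 of the 7 in NT3, Col1a1, and gave 5 no adjusted p. The tested members not called in Ctrl were Col24a1 (0.66, SE 0.29, edgeR adjusted p = 0.254) and Col27a1 (-0.37, SE 0.47, edgeR adjusted p = 0.792). The Col11a1 and Col11a2 values in Ctrl, 1.98 and 1.54, lie within the range of the 5 called collagens, 1.37 to 2.06. The Col11a2 value in NT3, 1.68, lies above that of each tested member of the list. Both collagen XI rows were chosen by these contrasts, so their place beside the list is a description only and was not tested. These collagen lists were drawn up with earlier results of these data known.

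Between genotypes, Col11a1 was set beside the same list. With limbs summed, where 0.846% of rows tested were called lower, 1 of the 7 tested members was lower in NT3, Col3a1 (log2 -0.72, SE 0.19, edgeR adjusted p = 0.042), and the list median was -0.48. The Col3a1 call was lost without each of Ctrl mice 2, 3 and 4 and NT3 mice 2, 3 and 4 (log2 -0.78 to -0.54, adjusted p = 0.057 to 0.269), with scaling to total counts (-0.67, adjusted p = 0.093) and with DESeq2 (-0.72, adjusted p = 0.0504). In loaded limbs, where 2.65% of rows tested were called, 0 of 7 were called by edgeR. An unadjusted edgeR p below 0.05 was found for 6 of the 7 and for 808 of all 6080 rows tested. DESeq2 called 1 of the 7, Col3a1, among 177 rows called in all. The list median was -0.66, with values from -1.02 for Col24a1 to -0.38 for Col27a1, all smaller in size than the -1.34 of Col11a1. In non-loaded limbs, where 0.579% were called, 0 of 7 were called by edgeR or DESeq2 (median -0.06). There, 0 of the 7 had an unadjusted edgeR p below 0.05, against 486 of all 6220 rows tested. Of 18 genes for procollagen folding, cleavage and cross-linking, 10 were tested with limbs summed and 0 were called by edgeR or DESeq2. An unadjusted edgeR p below 0.05 was found for 1 of the 10, Plod2, and for 996 of all 8626 rows tested. Serpinh1, the collagen chaperone, had a log2 value of -0.77 (edgeR adjusted p = 0.491), Plod2 and Plod3, lysyl hydroxylases, -1.06 (adjusted p = 0.165) and -0.36 (adjusted p = 0.753), and Crtap, a partner of P3h1, -0.12 (adjusted p = 0.970). For loading, 6 of the 18 were tested, and 1 rose in Ctrl (3.07% of rows tested were called higher), P3h1, a prolyl 3-hydroxylase of procollagen (2.74, SE 0.60, edgeR adjusted p = 0.0022), though not without Ctrl mouse 3 (2.27, adjusted p = 0.078). In NT3, where 0.417% of rows tested were called, 0 were. An unadjusted edgeR p below 0.05 was found there for 1, Plod3, and for 546 of all 7192 rows tested. Col24a1, Col27a1, Col5a2 and P3h1 were singled out after their values had been seen.

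**Figure D5:**
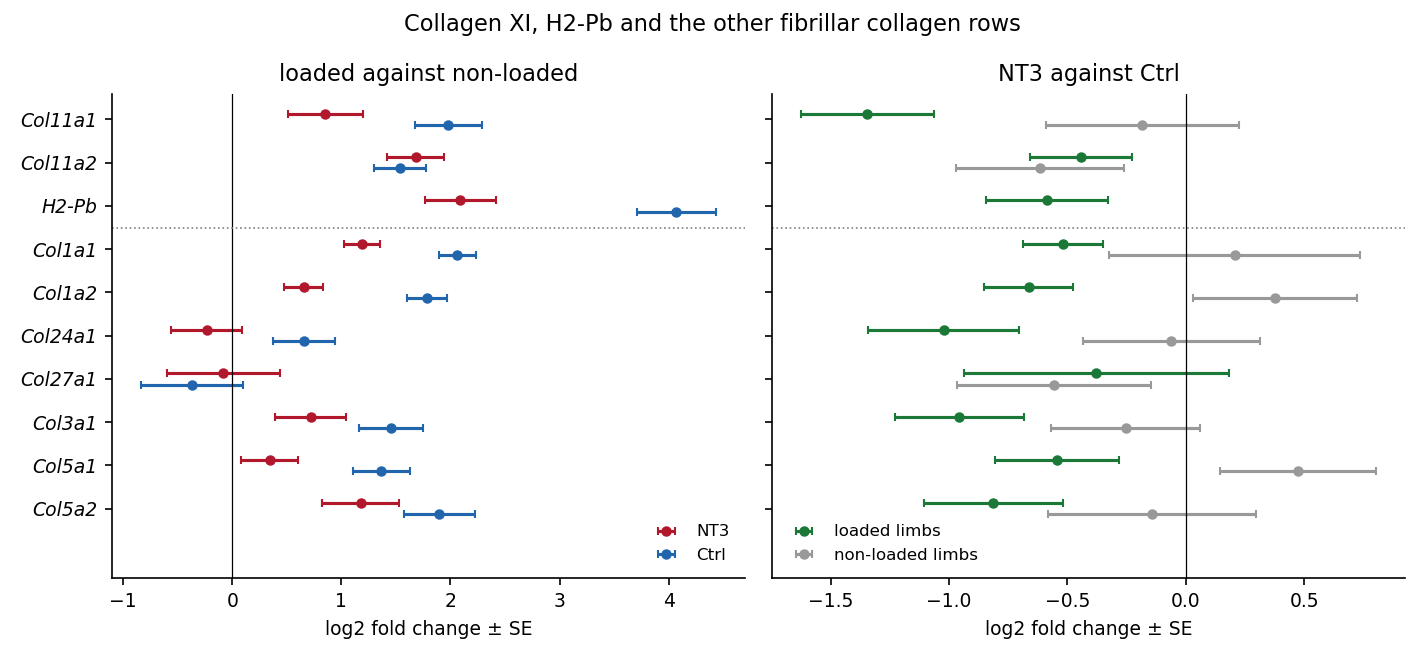
Log2 fold changes ± SE of the collagen XI rows, H2-Pb and the tested fibrillar collagen rows for loading in NT3 (red) and Ctrl (blue), left, and for NT3 against Ctrl in loaded (green) and non-loaded (grey) limbs, right. Col11a2 has nearly equal loading values in NT3 and Ctrl, 1.68 and 1.54, and Col11a1 has the lowest genotype value in loaded limbs, -1.34.

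The rows of the usual partners of collagen XI in cartilage held few fragments. So did the rows of Bglap, Bglap2 and Sp7, genes known from bone, so with the strand unsettled a row of few fragments does not show that the gene was low. Col2a1, which encodes the third chain, had 0 to 8 fragments in a library, Acan, the large cartilage proteoglycan, had 0 to 5, and Sox9, a master regulator of cartilage genes, had 0 to 2. Col9a1 and Matn1, which encode a collagen IX chain and a matrilin, had 0 in all 16 libraries. Other rows of these lists reached higher, with 0 to 16 fragments for Comp and 0 to 12 for Col9a3 (exons opposite Tcfl5). Sox5, with exons opposite Sox5os1, had 0 to 11, and Sox6 had 0 to 8. These ranges, over all 16 libraries, overlap those of Col11a1 in non-loaded limbs, 6 to 24 in NT3 and 8 to 20 in Ctrl. They are raw fragments not divided by length, so they do not compare levels between rows. The 8 cartilage fibril partners together held 10.5 to 26.4 CPM in loaded NT3, 3.87 to 12.2 in non-loaded NT3, 7.5 to 13.8 in loaded Ctrl and 5.57 to 17.4 in non-loaded Ctrl. None of them and none of the 3 Sox genes passed the filter for a test. Among the cartilage markers, the exceptions were Col10a1, with 125 to 194 fragments, and Chad, with 28 to 58, and each of these lies within the span of a gene on the other strand (Nt5dc1 and Acsf2). The whole cartilage marker list of 9 genes, 8 of them with rows, held 227 to 239 CPM in loaded NT3, 182 to 283 in non-loaded NT3, 193 to 225 in loaded Ctrl and 198 to 250 in non-loaded Ctrl, so its range did not separate loaded from non-loaded limbs.

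Markers of tissues around the bone were also read beside the loading values. The skeletal muscle list of 7 genes held 65.0 to 130 CPM in loaded NT3, 114 to 308 in non-loaded NT3, 69.2 to 219 in loaded Ctrl and 86.2 to 293 in non-loaded Ctrl. The marrow list of 10 genes held 45 to 83.1 CPM in loaded NT3, 59.3 to 95.4 in non-loaded NT3, 50.4 to 68.8 in loaded Ctrl and 39.4 to 113 in non-loaded Ctrl. The list of 7 antigen presenting genes held 34 to 56 CPM in loaded NT3, 42.7 to 51.2 in non-loaded NT3, 32.1 to 60.1 in loaded Ctrl and 22.5 to 56.8 in non-loaded Ctrl. B lymphoid genes, 8 in all, held 14.9 to 39.4 and tendon genes, 5 in all, 17.6 to 43.3 over all groups. The muscle range reached higher in non-loaded limbs of each genotype, and its part in the loading values of the 3 rows was not tested. With the mean level of marrow marker rows as a covariate, the Col11a1 genotype values were -1.01 with limbs summed (edgeR adjusted p = 0.023) and -1.30 in loaded limbs (edgeR adjusted p = 0.0039).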

How the data were processed

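RNA-seq was made from 16 tibial libraries of 8 mice, depleted of ribosomal RNA and read single-end for 75 bases, per the labels' protocols. Per the submitters' processing notes, the tools were STAR 2.4.2a, featureCounts 1.4.6 of Subread and DESeq2, with the build mm10. The deposited values are the authors' whole-number fragment counts per gene. No source used here names the annotation release or strand setting (not given in the sources used here).

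Rows were matched by symbol to GENCODE vM21, whose assembly GRCm38 is the one called mm10. The exon windows and relatives of H2-Pb were compared with the transcripts of that release. The members and gene lists were chosen with earlier results of these data known. Named rows were the members, list genes, rows within 50 kb of a member, and the 5 rows most correlated with each member, 1 of which is not reported here.

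Rows were filtered by group (filterByExpr, minimum count 10), TMM-scaled and tested with robust quasi-likelihood F tests in edgeR 4.0.16 (R 4.3.3), with Benjamini-Hochberg adjustment over all rows tested and a threshold of 0.05. Genotype was tested on 8 loaded limbs, 8 non-loaded limbs, or 8 sums of both limbs. Loading was fitted on all 16 with mouse as a replicate block. The SE of an edgeR log2 fold change is its size divided by the square root of its F statistic. For the loading values of the members, the SE is a description only. The pairing comes from the animal numbers and the design text: limbs of a mouse deviated from their group means with r of 0.0441 to 0.171, and for Ctrl mouse 4 another mouse gave a higher r (0.0861). Replicates are separate mice. Correlations and ratios were tested by exact permutation (SciPy 1.17.1). The fits were tested on simulated data. Alternatives were other scaling, no filter, DESeq2 1.42.0, no block, a marrow covariate, another pseudocount (0.25 in place of 1) and leaving out each mouse. Libraries held 758394 to 1064391 fragments, so rows of few fragments carry wide counting error.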

Additional observations from a re-analysis of the deposited data

How the results depend on the processing

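Of 336 recomputed values, 304 kept their direction and side of the threshold or, for values with no test, moved by less than the SD between mice (counts of rows, by at most 1.5 times). Among these, 2 turned sign, both of the Col11a2 loading difference (0.14 with all mice, -0.13 without Ctrl mouse 1 and -0.084 without NT3 mouse 3). Added after seeing the data, leaving out Ctrl mouse 4 turned the per-length ratio of H2-Pb to Col11a2 in non-loaded Ctrl limbs, 1.62 with all mice, to 0.962; without 1 mouse at a time it ran from 0.962 to 2.31 (without mouse 1). For loading in NT3, 30 rows were called, against 5 with no replicate block for mouse, 19 with scaling to total counts and 19 with DESeq2. For loading in Ctrl, 293 were called, against 171 with no replicate block and 169 with DESeq2. In non-loaded limbs 36 were called between genotypes, against 71 with no filter. The member values of loading kept their direction without the block. Leaving out 1 mouse at a time gave 88 to 209 called rows between genotypes with limbs summed (171 with all mice), 12 to 77 in non-loaded limbs, 17 to 44 for loading in NT3 and 163 to 325 for loading in Ctrl. The summed Col11a1 value ran from -1.15 to -0.86. Its non-loaded genotype value, -0.18 with all mice, ran from -0.66 to 0.07, with a positive sign without Ctrl mouse 1 (0.066) or NT3 mouse 3 (0.0091). The H2-Pb to Col11a2 ratio, NT3 minus Ctrl, ran from -0.38 to 0.033 in loaded limbs (0.0049 without NT3 mouse 3 and 0.033 without Ctrl mouse 1) and from 1.55 to 2.45 in non-loaded limbs, where 3 mice against 4 allow no exact permutation p below 0.0571. The cause of the other changes was not tested. Depth limits H2-Pb in non-loaded Ctrl limbs, which held 1 to 10 fragments.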
